A study of Mus musculus with 12 samples.

Results

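The genes described here are 36 mitosis genes, whose products condense chromosomes, build the spindle, attach chromosomes to it, control the entry into and the exit from mitosis, and divide the cell. They were chosen by name: a gene was included when its symbol in the deposited tables equalled one of 36 listed symbols, and each symbol matched 1 of the 54446 gene identifiers. This list and the neighbouring lists below were made with earlier results of these data known. Comparisons of their shares with all tested genes are therefore descriptions and not independent of those results. All 36 passed the filter used for testing, a mean of at least 1 TPM over all libraries, which 15727 genes passed. TPM, the unit of the deposited values, counts transcripts per gene after correction for transcript length and is scaled so that the values of a library sum to 1000000. The 12 RNA sequencing libraries came from mouse embryonic stem (ES) cells and formed 6 groups of 2 replicates. Cells of the KH line, the wild type, and of the DNMT3ABKO line were collected without treatment (0 h) or after 72 or 144 h of INK128, which inhibits the kinase mTOR (mTORi) and puts ES cells on hold in a state like that of embryos in diapause. DNMT3ABKO cells lack Dnmt3a and Dnmt3b, the enzymes that place new DNA methylation. The labels write E14 before both line names, whereas the methods of the study call the wild type KH2 and describe growth on mitomycin-treated feeders and sorting of viable single cells for both lines.

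Each genotype was a single line, so that a difference between genotypes and a difference between lines cannot be told apart. No untreated culture was collected at 72 or 144 h, and time in culture and time on mTORi cannot be told apart either. The study describes its replicates as biological and its experiments as independently repeated, and the labels add nothing on how the cultures of a group were kept apart. TPM values are shares of a library's RNA, so a gene that rose took a larger share of the RNA. With spike-in RNA the study reported lower global transcription and slower proliferation under mTORi in wild-type and Dnmt3a/b double knockout cells. A larger share of a smaller total need not be more RNA per cell. Total RNA per cell was not analysed here, and fewer cells of a type and less RNA per cell cannot be told apart in such samples.

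As background, cyclin B bound to the kinase Cdk1 drives cells into mitosis, and the aurora and polo-like kinases act beside it on centrosomes, chromosomes and the spindle. Kinetochores, built on centromeres, hold the chromosomes to spindle microtubules, and the spindle checkpoint keeps the anaphase-promoting complex inactive until all are attached. Once active with its partner Cdc20, that complex marks cyclin B and securin for destruction, the sister chromatids part, and the spindle midzone and a contractile ring divide the cell. Many of these genes are transcribed mainly in G2 and mitosis, so that their level in a culture follows, among other things, the share of cells in those phases.

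Across the tested genes, which are not independent replicates, the pair of DNMT3ABKO libraries at 0 h had the lowest correlation between replicates (r = 0.985, against 0.994 to 0.996 for the remaining 5 pairs). Within some pairs the difference between replicates ran one way for nearly all of these genes. All 36 were lower in replicate 1 than in replicate 2 of DNMT3ABKO cells at 0 h, with a median difference of -0.24 on the log2 scale, and 35 of 36 were lower in replicate 1 of KH cells at 0 h (median -0.11). In DNMT3ABKO cells at 144 h 32 of 36 were lower in replicate 1 (median -0.08), and in the remaining 3 groups 13 to 21 were. A size factor was set for each library from its median ratio over 21453 genes. In DNMT3ABKO cells at 0 h it was 0.897 in replicate 1 and 0.999 in replicate 2. In KH cells at 0 h it was 0.962 and 1.005, and in DNMT3ABKO cells at 144 h 0.976 and 1.001. A lower replicate 1 was thus not particular to the 36. Counts are therefore given with and without the libraries that moved them. Dnmt3a and Dnmt3b were lower in every DNMT3ABKO library than in every KH library: the sum of both was 219 to 313 TPM in KH and 29.9 to 40.3 TPM in DNMT3ABKO cells. The samples expressed the ES cell markers in all libraries, and 20 fibroblast markers, summed, went from 2294 to 2706 TPM at 0 h to 732 to 1002 TPM at 72 h and 187 to 221 TPM at 144 h over both lines. None of the 20 was at 0 in any library. The sum of 11 macrophage markers went from 269 to 332 TPM at 0 h to 21.8 to 39.1 TPM at 144 h, with C1qb and Tyrobp at 0 in some library.

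The 36 genes took a larger share of the RNA at the later times. In untreated KH cells their TPM summed to 3279 and 3585, after 72 h to 3731 and 3748, and after 144 h to 4169 and 4121. In DNMT3ABKO cells the sum was 3026 and 3574 TPM before treatment, 3978 and 3901 TPM after 72 h, and 4344 and 4516 TPM after 144 h. In each line every library at 72 h lay above both at 0 h, and every library at 144 h above both at 72 h. The share of all TPM went from 0.343% ± 0.022 to 0.415% ± 0.0033 (mean ± SD, n = 2) in KH cells and from 0.330% ± 0.039 to 0.443% ± 0.012 in DNMT3ABKO cells between 0 and 144 h.

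Other sums moved over the same hours. The 10 ES cell markers, among them Pou5f1, Sox2 and Nanog, went in sum from 4657 to 4971 TPM at 0 h over both lines to 6710 to 7006 TPM at 72 h and 7076 to 7247 TPM at 144 h. By the limma test below, 9 rose and 0 fell in KH cells at each time. In DNMT3ABKO cells 9 rose and 1 fell at 72 h, and 7 rose and 1 fell at 144 h. The ratio of the mitosis sum to the ES marker sum went down, from 0.704 and 0.721 in KH cells at 0 h to 0.532 and 0.547 at 72 h and 0.575 and 0.577 at 144 h. In DNMT3ABKO cells it was 0.649 and 0.756, 0.593 and 0.579 and 0.610 and 0.638 at the same times. All 18 tested fibroblast markers fell in both lines at both times. The part of the falling share of fibroblast marker RNA in the rise of the mitosis genes was not tested. Against 46 DNA replication genes, which act earlier in the cell cycle, the ratio went up between 0 and 144 h. In KH cells it went from 0.840 and 0.844 to 1.00 and 0.989. In DNMT3ABKO cells it went from 0.758 and 0.807 to 1.15 and 1.17.

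**Figure D1:**
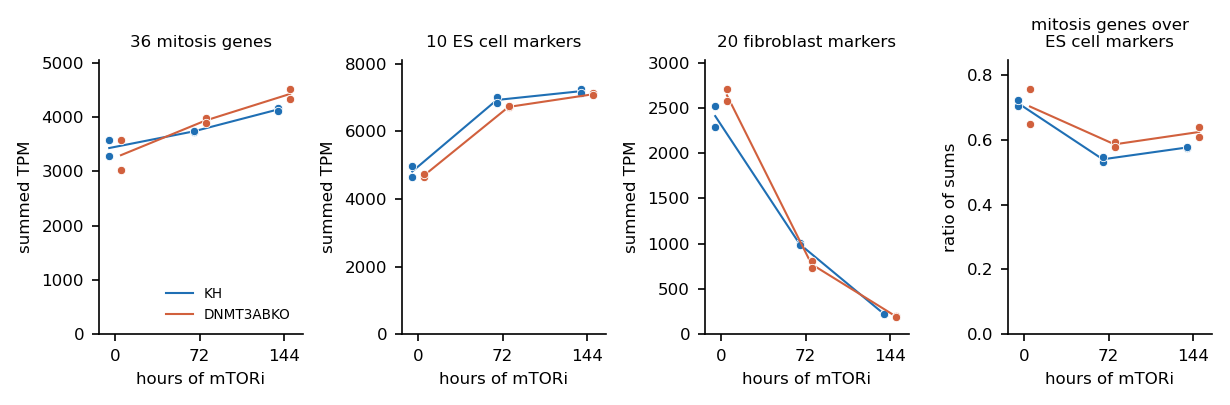
Summed TPM of the 36 mitosis genes, of 10 ES cell markers and of 20 fibroblast markers, and the ratio of the first to the second, against hours of mTORi. Each point is 1 library and lines join the means of 2 replicates, blue for KH and orange for DNMT3ABKO. The mitosis sum reached 4121 to 4516 TPM at 144 h, while its ratio to the ES markers was lower at 72 and 144 h than in either replicate at 0 h.

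Across the 36 genes, tested within a limma model of all 15727 genes and called at an adjusted p under 0.05, most of the calls were rises. In KH cells 17 rose and 2 fell between 0 and 72 h, against 28.3% of all tested genes called higher and 19.5% called lower. The median change of the 36 was 0.15 on the log2(TPM + 1) scale, against 0.08 for all tested genes. At 144 h 22 rose and 1 fell, against 27.4% and 23.9% of all genes, and the median change was 0.25 against 0.05. In DNMT3ABKO cells 19 rose and 2 fell at 72 h, with 34.3% and 21.6% of all genes called higher and lower, and the median was 0.24 against 0.12. At 144 h 27 rose and none fell, with 31.4% and 26.2% for all genes, 28 at an unadjusted p under 0.05 in either direction, and a median of 0.39 against 0.05.

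There were more rises than falls without each of the libraries doubted. Without replicate 1 of DNMT3ABKO at 0 h, 15 rose and 5 fell at 72 h and 24 rose and 1 fell at 144 h, with medians of 0.13 and 0.30. Without replicate 1 of KH at 0 h, 9 rose and 2 fell at 72 h and 14 rose and 1 fell at 144 h, with medians of 0.08 and 0.20. Leaving out either KH library at 72 h gave 10 rises and 1 fall at 72 h, and leaving out replicate 2 of KH at 144 h gave 15 rises and no fall. Under a rescaling of the libraries by the median ratio over genes, which moved the median of all genes by -0.09 in KH and by -0.12 in DNMT3ABKO cells at 72 h, the calls at 72 h became 14 higher and 6 lower in each line, and at 144 h 23 higher and 3 lower in KH and 27 higher in DNMT3ABKO cells. The rises lost at 72 h were Ccnf, Aurkb and Kif4 in KH and Ccnb2, Bub1b, Nuf2, Cdc20 and Kif4 in DNMT3ABKO cells. At 144 h the rise of Birc5 in DNMT3ABKO cells was lost. With the replicate number as a block the changes from 0 h of Aurkb (KH, 72 h), Incenp and Aurka (KH, 144 h), Cdc25c (DNMT3ABKO, 72 h) and Birc5 (DNMT3ABKO, 144 h) missed the threshold, with adjusted p of 0.0614 to 0.0683 in limma.

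At 72 h 16 genes rose in both lines, which is 16 of 17 in KH (94.1%) and 16 of 19 in DNMT3ABKO cells (84.2%). Of all tested genes called higher, 81.8% in KH and 67.4% in DNMT3ABKO cells were called higher in both. The 16 genes were Bub1, Bub1b, Ccnb2, Ccnf, Cdk1, Cenpe, Cenpf, Ect2, Foxm1, Kif11, Kif2c, Kif4, Mki67, Ndc80, Top2a and Ttk. Of them, Bub1b and Ccnb2 in DNMT3ABKO cells, Ccnf in KH cells and Kif4 in both lost the call at 72 h under median-ratio scaling. All 16 were also higher in both lines at 144 h. By 144 h 22 were higher in both, the 6 additional ones being Cdc20, Cenpa, Incenp, Kif20a, Nusap1 and Prc1. This was 22 of 22 in KH and 22 of 27 (81.5%) in DNMT3ABKO cells, against 76.9% and 67.1% for all tested genes called higher. Across the 36 genes the changes of both lines correlated with r of 0.87 at 72 h and of 0.85 at 144 h, against 0.82 and 0.79 across all tested genes, as a description over genes that share their libraries. Aurka fell in both at 72 h, and Anln, Ccnb1, Mad2l1, Plk1 and Tpx2 were not called against 0 h in either line at either time.

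**Figure D2:**
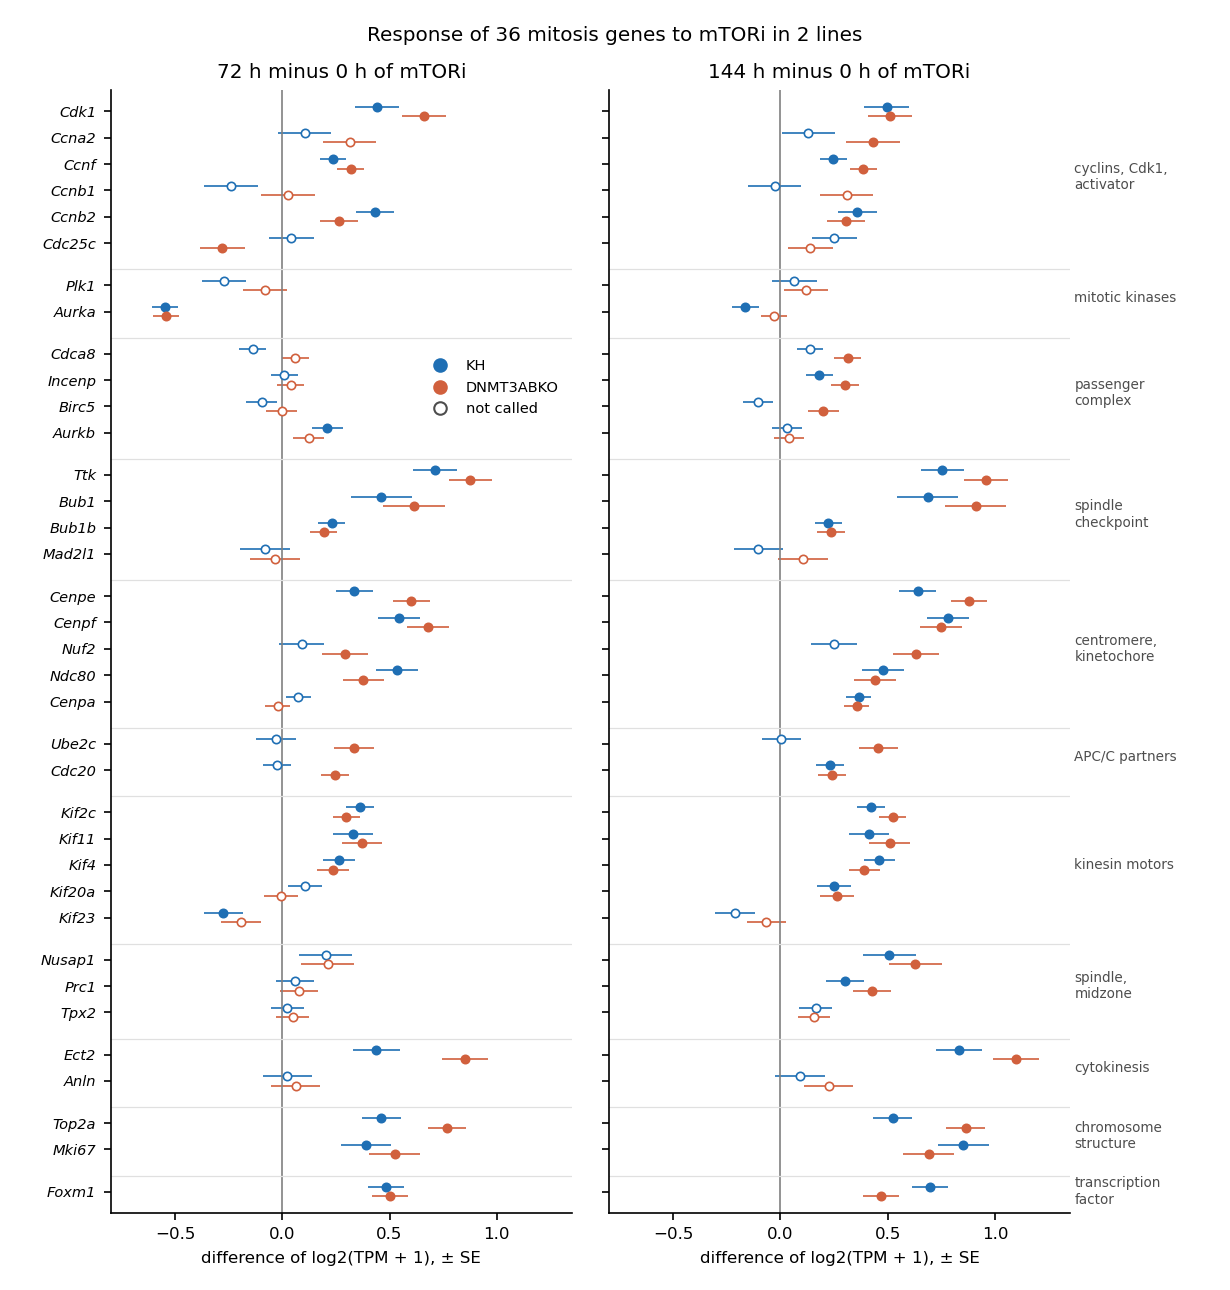
Change of each of the 36 mitosis genes from 0 to 72 h (left) and from 0 to 144 h (right), as the difference of log2(TPM + 1) with its standard error from limma, for KH (blue) and DNMT3ABKO (orange), ordered by role. Filled points were called at an adjusted p under 0.05. At 144 h the points ran from -0.21 to 0.85 in KH and from -0.07 to 1.10 in DNMT3ABKO cells, with Ect2 farthest to the right in DNMT3ABKO cells and Aurka called below 0 in KH cells.

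The promoters of the genes were compared as well, and any part of them in the responses was not tested. RefSeq windows of 300 bases (250 before to 50 after the start site, GRCm38.p6, given on the strand of the gene) were found for 29 of the 36. Those of Aurkb, Ccna2, Cdc25c, Foxm1, Incenp, Kif20a and Tpx2 were not in the table. In 21 of the 29 a stretch after the start site was found in a transcript of the gene, and none matched on the other strand. Anln, Aurka, Birc5, Kif11, Kif23, Kif2c, Mad2l1 and Mki67 had no match, and positions from their start sites are less certain. Cell cycle genes of G2 and mitosis are known for a cell cycle homology region, TTTGAA, called the CHR, which the MuvB complex binds through Lin54, and for CCAAT boxes, which NF-Y binds. On either strand, TTTGAA was in 22 of the 29 windows (75.9%), against 18.1% of 27025 genes with 1 window each. CCAAT was in 22 (75.9%), against 37.9%, and both were in 19 (65.5%), against 7.12%. In 20 of the 29 a TTTGAA began within 50 bases of the start site, against 4.92% of all genes. Its variant TTCGAA was in 3 (all genes: 1.57%), in Bub1, Bub1b and Top2a. No other form of the CHR was searched for, so a window without TTTGAA may hold one. The tandem element of a CDE (the letters GCG) and a CHR spaced as in known cell cycle promoters, whose CHR is also counted above, was in 4 (0.159%), in Ccnb2, Cdk1, Cenpf and Plk1. These matches are letters in a window and no measurement of binding, and the genes set beside them were not limited to the tested ones.

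The windows of 6 genes are printed to set the letters beside the responses, for genes that rose, fell or were not called. Capitals mark the CHR, its variant and the CCAAT box on either strand. Ttk (chr9:83834439-83834738, plus strand), Ect2 (chr3:27153829-27154128, minus), Top2a (chr11:99024140-99024439, minus) and Cdk1 (chr10:69352863-69353162, minus) rose at both times in both lines, Aurka (chr2:172370521-172370820, minus) fell at 72 h, and Ccnb1 (chr13:100786437-100786736, minus) was not called.
Ttk: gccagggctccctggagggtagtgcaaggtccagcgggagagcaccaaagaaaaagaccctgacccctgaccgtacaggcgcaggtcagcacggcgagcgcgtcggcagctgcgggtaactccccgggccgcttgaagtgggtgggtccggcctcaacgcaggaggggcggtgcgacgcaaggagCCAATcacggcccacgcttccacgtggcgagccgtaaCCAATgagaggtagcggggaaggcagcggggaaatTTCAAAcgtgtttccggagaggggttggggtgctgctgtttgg
Ect2: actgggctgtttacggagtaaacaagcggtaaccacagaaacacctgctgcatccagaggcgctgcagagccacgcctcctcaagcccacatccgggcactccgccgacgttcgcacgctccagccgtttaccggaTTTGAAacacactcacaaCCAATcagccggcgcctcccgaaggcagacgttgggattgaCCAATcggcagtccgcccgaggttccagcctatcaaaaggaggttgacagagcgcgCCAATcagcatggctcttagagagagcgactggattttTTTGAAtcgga
Top2a: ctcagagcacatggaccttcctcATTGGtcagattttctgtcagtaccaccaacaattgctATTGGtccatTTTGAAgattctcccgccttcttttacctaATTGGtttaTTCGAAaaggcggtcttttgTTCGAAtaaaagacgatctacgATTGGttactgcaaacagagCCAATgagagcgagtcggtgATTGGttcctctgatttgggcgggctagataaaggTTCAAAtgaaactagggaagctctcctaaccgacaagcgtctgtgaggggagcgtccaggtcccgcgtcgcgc
Cdk1: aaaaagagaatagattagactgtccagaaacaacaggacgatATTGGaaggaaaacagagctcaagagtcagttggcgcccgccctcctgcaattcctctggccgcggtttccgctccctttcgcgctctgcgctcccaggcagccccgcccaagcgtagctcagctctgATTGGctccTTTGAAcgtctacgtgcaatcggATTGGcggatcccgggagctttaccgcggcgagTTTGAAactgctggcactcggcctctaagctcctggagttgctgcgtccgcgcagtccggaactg
Aurka: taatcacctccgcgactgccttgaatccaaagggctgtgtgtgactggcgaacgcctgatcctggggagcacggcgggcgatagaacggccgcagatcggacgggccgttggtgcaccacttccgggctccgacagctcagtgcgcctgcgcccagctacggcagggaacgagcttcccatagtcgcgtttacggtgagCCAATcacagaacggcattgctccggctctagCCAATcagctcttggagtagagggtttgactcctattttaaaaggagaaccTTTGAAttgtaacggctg
Ccnb1: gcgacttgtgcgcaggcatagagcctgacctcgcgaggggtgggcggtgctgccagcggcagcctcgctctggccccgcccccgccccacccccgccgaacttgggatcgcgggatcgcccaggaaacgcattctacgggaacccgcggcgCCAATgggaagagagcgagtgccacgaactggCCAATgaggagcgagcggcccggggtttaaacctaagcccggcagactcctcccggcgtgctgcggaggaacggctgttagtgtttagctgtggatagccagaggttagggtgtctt
The windows of Ttk, Ect2, Top2a and Cdk1 each held TTTGAA and CCAAT. The window of Aurka, the gene that fell, held both as well, and that of Ccnb1 held CCAAT but no TTTGAA.

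Genes with and without TTTGAA in the window both included genes that rose. Of the 22 with it, 16 rose in KH and 18 in DNMT3ABKO cells at 144 h, with medians of 0.36 and 0.41. Of the 7 without it, Birc5, Bub1, Ccnb1, Cenpe, Mad2l1, Nuf2 and Nusap1, 3 rose in KH and 5 in DNMT3ABKO cells, with medians of 0.25 and 0.63. Cenpe, Nusap1 and Bub1 were among those without TTTGAA that rose in both lines, and Anln, Plk1 and Kif23 were among those with it that did not rise in either at 144 h. The window of Bub1 held the variant TTCGAA. Outside the 36, TTTGAA was in 35 of 69 windows of 80 other mitosis genes (50.7%), in 3 of 16 of the anaphase-promoting complex (18.8%) and in 4 of 37 of the DNA replication genes (10.8%). CCAAT was in 43 (62.3%), 6 (37.5%) and 22 (59.5%) of the same windows, so its excess was not particular to the 36. The excess of TTTGAA over the 18.1% of all genes was shared by the other mitosis genes. Both elements were in 26 (37.7%), 1 (6.25%) and 3 (8.11%).

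Levels among the genes spanned a wide range. TPM is scaled per transcript length, so that genes can be ranked, and Top2a stood highest with a mean of 395 TPM over the 12 libraries, above 98.2% of the tested genes. Cdc20, Ccnb1 and Ube2c followed at 254, 247 and 240.4 TPM, and the ranges of these 3 over the libraries overlapped. The others, apart from the lowest pair, had means between 37.2 and 146 TPM. Kif4 at 23.4 TPM and Cdc25c at 15.4 TPM were the lowest, and Cdc25c was still above 55.4% of the tested genes.

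Of the cyclins, Cdk1 and its activator, Cdk1, Ccnb2 and Ccnf rose in both lines at both times. Cdk1, the kinase that drives mitotic entry, stood at 64.4 and 68.2 TPM in KH cells at 0 h, at 87.2 and 93.7 TPM at 72 h and at 100.5 and 87.6 TPM at 144 h. In DNMT3ABKO cells Cdk1 was at 57.9 and 70.7 TPM, 106 and 97.3 TPM and 88.99 and 94.2 TPM at these times. Every treated library lay above both untreated libraries of its line, and the change was 0.44 ± 0.10 (adjusted p = 0.006) and 0.49 ± 0.10 (adjusted p = 0.00276) in KH cells at 72 and 144 h and 0.66 ± 0.10 (adjusted p = 0.000434) and 0.51 ± 0.10 (adjusted p = 0.00187) in DNMT3ABKO cells (± SE, limma). Ccnb2, a B-type cyclin partner of Cdk1, was at 73.9 and 83.3 TPM at 0 h, 107 and 105 TPM at 72 h and 97.5 and 104 TPM at 144 h in the KH libraries. The DNMT3ABKO libraries held 66.8 and 79.9 TPM, then 89.9 and 86.04 TPM and 90.4 and 90.6 TPM of Ccnb2. Its changes were 0.43 ± 0.090 (adjusted p = 0.00319) and 0.36 ± 0.090 (adjusted p = 0.00763) in KH and 0.26 ± 0.090 (adjusted p = 0.0296) and 0.31 ± 0.090 (adjusted p = 0.0148) in DNMT3ABKO cells, and the treated and untreated libraries did not overlap in either line. For Ccnb2 the KH call at 144 h was lost without replicate 1 of KH at 0 h or replicate 2 of KH at 144 h, the DNMT3ABKO call at 72 h was lost without replicate 1 of DNMT3ABKO at 0 h or either library of DNMT3ABKO at 72 h and the DNMT3ABKO call at 144 h was lost without replicate 1 of DNMT3ABKO at 0 h or either library of DNMT3ABKO at 144 h.

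Ccnf encodes cyclin F, which selects proteins for an SCF ubiquitin ligase. Ccnf had 89.9 and 96.7 TPM in untreated KH cells, 113 and 108 TPM at 72 h and 108 and 113 TPM at 144 h. For Ccnf in DNMT3ABKO cells the values were 96.7 and 101 TPM, 122 and 125 TPM and 129 and 130.0 TPM. It rose by 0.24 ± 0.062 (adjusted p = 0.0108) and 0.25 ± 0.062 (adjusted p = 0.00773) in KH and 0.32 ± 0.062 (adjusted p = 0.00168) and 0.39 ± 0.062 (adjusted p = 0.000444) in DNMT3ABKO cells. For Ccnf the KH call at 72 h was lost without replicate 1 of KH at 0 h or replicate 1 of KH at 72 h and the KH call at 144 h was lost without replicate 1 of KH at 0 h or replicate 2 of KH at 144 h. Ccnb1, the main partner of Cdk1 at mitotic entry, was not called in any of the 11 contrasts. It stood at 247 and 266 TPM in KH cells at 0 h, at 215 and 219 TPM at 72 h and at 247 and 257 TPM at 144 h. In DNMT3ABKO cells Ccnb1 was at 195 and 273 TPM, 245 and 226 TPM and 283 and 289 TPM at these times. The DNMT3ABKO libraries at 0 h lay on both sides of those at 72 h, and the fitted changes of Ccnb1 ran from -0.24 (KH, 72 h) to 0.31 (DNMT3ABKO, 144 h). The related pseudogene Ccnb1-ps was listed at 16.5 to 21.8 TPM, and how reads were divided between the copies is not given in the sources used here.

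Ccna2, whose cyclin A2 serves both S phase and mitotic entry, was at 116 and 128 TPM at 0 h, 130.3 and 132 TPM at 72 h and 135 and 132 TPM at 144 h in the KH line. Ccna2 in the DNMT3ABKO line was at 80.4 and 112 TPM, then at 121 and 115 TPM and 126 and 131 TPM. All treated libraries were above the untreated ones of their line, but the change passed the test only for DNMT3ABKO cells at 144 h, 0.43 ± 0.12 (adjusted p = 0.0131), against 0.13 ± 0.12 (adjusted p = 0.411) in KH cells, and the difference between lines in that response did not pass the test (0.30 ± 0.18, adjusted p = 0.345). For Ccna2 the DNMT3ABKO call at 144 h was lost without replicate 2 of DNMT3ABKO at 144 h. Cdc25c encodes a phosphatase that activates Cdk1. It had 14.2 and 15.5 TPM in untreated KH cells, 15.6 and 15.00 TPM at 72 h and 16.5 and 19.2 TPM at 144 h. For Cdc25c in DNMT3ABKO cells the values were 13.99 and 16.4 TPM, 12.98 and 11.7 TPM and 16.3 and 17.3 TPM. In DNMT3ABKO cells it fell at 72 h, with a change of -0.28 ± 0.11 (adjusted p = 0.0439), and rose between 72 and 144 h, 0.42 ± 0.11 (adjusted p = 0.0144), with all libraries of 72 h below the others. The rise was lost without replicate 2 of DNMT3ABKO at 72 or 144 h. The fall was lost when either library of KH at 0 or 72 h, either of DNMT3ABKO at 72 or 144 h or replicate 2 of DNMT3ABKO at 0 h was left out.

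The mitotic kinases Aurka and Plk1 did not rise over 0 h in either line. Aurka encodes aurora A, which matures centrosomes and helps to build the spindle. In these libraries Aurka stood at 115 and 124 TPM in KH cells at 0 h, at 81.1 and 82.2 TPM at 72 h and at 105 and 108 TPM at 144 h. In DNMT3ABKO cells Aurka was at 129 and 136 TPM, 90.2 and 91.9 TPM and 127 and 133 TPM at these times. The 4 libraries at 72 h were the lowest of all 12, and the fall at 72 h was -0.55 ± 0.061 (adjusted p = 8.55e-05) in KH and -0.54 ± 0.061 (adjusted p = 5.38e-05) in DNMT3ABKO cells. It was the one gene of the 36 that fell at 72 h in both. Between 72 and 144 h Aurka rose, by 0.38 ± 0.061 (adjusted p = 0.00177) in KH and 0.51 ± 0.061 (adjusted p = 0.0002) in DNMT3ABKO cells. KH libraries were then still below 0 h (-0.16 ± 0.061, adjusted p = 0.0469), while in DNMT3ABKO cells those of 144 and 0 h overlapped. That last KH call was lost when any library of 72 or 144 h, or replicate 2 of KH at 0 h, was left out.

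Plk1, the polo-like kinase that acts from mitotic entry to cytokinesis, was at 108 and 125 TPM at 0 h, 98.6 and 93.4 TPM at 72 h and 121 and 122 TPM at 144 h in the KH libraries. The DNMT3ABKO libraries held 96.8 and 121 TPM, then 101 and 104 TPM and 117 and 119 TPM of Plk1. Its lowest libraries in KH cells were also those of 72 h, with a change of -0.27 ± 0.10 (adjusted p = 0.0512) that did not pass the test. Between 72 and 144 h it rose in KH cells, 0.34 ± 0.10 (adjusted p = 0.0403), and the corresponding value in DNMT3ABKO cells was 0.20 ± 0.10 (adjusted p = 0.188). The KH rise was lost when any library of 72 or 144 h of either line was left out, and without a filter on low values. At 144 h Plk1 differed from 0 h by 0.07 in KH and 0.12 in DNMT3ABKO cells, with the libraries overlapping in both.

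**Figure D3:**
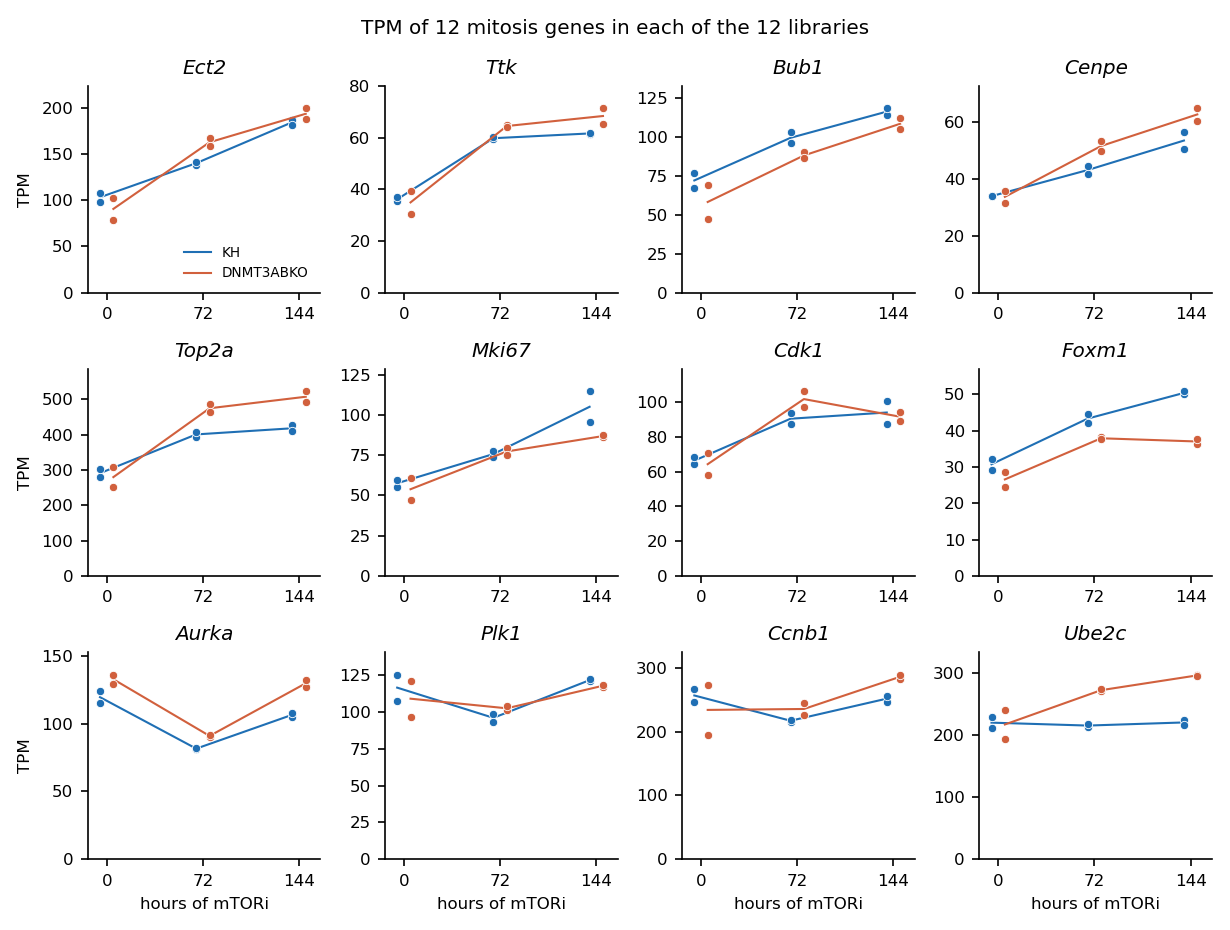
TPM of 12 of the mitosis genes in each library against hours of mTORi, with axes from 0. Points are single libraries, lines join the means of 2 replicates, and blue is KH and orange DNMT3ABKO. Ect2, Ttk, Bub1, Cenpe, Top2a, Mki67, Cdk1 and Foxm1 lay higher at 72 and 144 h than at 0 h in both lines, Aurka dipped at 72 h, and Ube2c rose in DNMT3ABKO cells and stayed between 211 and 229.5 TPM in KH cells.

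The chromosomal passenger complex, aurora B with Incenp, survivin (Birc5) and borealin (Cdca8), corrects faulty attachments and later acts at the midzone. For its 4 genes no change from 0 h exceeded 0.31 in size. At 144 h Incenp rose in both lines, 0.18 ± 0.063 (adjusted p = 0.0353) in KH and 0.30 ± 0.063 (adjusted p = 0.00239) in DNMT3ABKO cells, from 79.4 to 89.5 TPM at 0 h over both lines to 97.9 to 102 TPM. The DNMT3ABKO call was lost in a fit of only the groups compared. The KH call was lost when any library of 72 or 144 h, or replicate 1 of KH at 0 h, was left out. Cdca8 had 93.6 and 102 TPM in untreated KH cells, 88.6 and 88.6 TPM at 72 h and 107 and 108 TPM at 144 h. For Cdca8 in DNMT3ABKO cells the values were 97.9 and 99.7 TPM, 100.1 and 106 TPM and 121 and 125 TPM. It rose at 144 h in DNMT3ABKO cells, 0.31 ± 0.062 (adjusted p = 0.00165), against 0.14 ± 0.062 (adjusted p = 0.0878) in KH cells, and between 72 and 144 h in both, 0.28 ± 0.062 (adjusted p = 0.0105) and 0.25 ± 0.062 (adjusted p = 0.0129). The KH rise between 72 and 144 h was lost without any KH library of those times, and the DNMT3ABKO one without replicate 1 of DNMT3ABKO at 72 h or replicate 2 at 144 h. Birc5, also a blocker of apoptosis, stood at 126 and 142 TPM in KH cells at 0 h, at 125 and 125 TPM at 72 h and at 129 and 119.9 TPM at 144 h. In DNMT3ABKO cells Birc5 was at 137 and 147 TPM, 139.7 and 144 TPM and 163 and 163 TPM at these times. Its DNMT3ABKO libraries at 144 h were the highest of the 12, a rise of 0.20 ± 0.072 (adjusted p = 0.0358), while in KH cells the change was -0.10 ± 0.072 (adjusted p = 0.25). The rise was lost when any library of 72 h, either DNMT3ABKO library of 144 h or replicate 1 of DNMT3ABKO at 0 h was left out. Aurkb itself stayed between 49.0 and 61.6 TPM and was called once, higher in KH cells at 72 h (0.21 ± 0.071, adjusted p = 0.0344), a call that was lost when any library of 72 or 144 h, or replicate 1 of KH at 0 h, was left out.

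Of the spindle checkpoint genes, Ttk, Bub1 and Bub1b rose in every response and Mad2l1 in none. Ttk encodes the kinase Mps1, which starts checkpoint signalling at unattached kinetochores. Over the series Ttk was at 35.3 and 36.97 TPM at 0 h, 59.4 and 60.3 TPM at 72 h and 61.6 and 61.8 TPM at 144 h in the KH line. Ttk in the DNMT3ABKO line was at 30.6 and 39.3 TPM, then at 64.9 and 64.2 TPM and 65.4 and 71.5 TPM. The treated libraries, at 59.4 TPM or more, did not overlap the untreated ones, at 39.3 TPM or less, and the change was 0.71 ± 0.10 (adjusted p = 0.000339) and 0.75 ± 0.10 (adjusted p = 0.000173) in KH and 0.88 ± 0.10 (adjusted p = 5.93e-05) and 0.96 ± 0.10 (adjusted p = 2.35e-05) in DNMT3ABKO cells. Bub1, a kinetochore kinase that marks centromeric histone for cohesion, had 67.3 and 76.9 TPM in untreated KH cells, 96.1 and 103 TPM at 72 h and 114 and 119 TPM at 144 h. For Bub1 in DNMT3ABKO cells the values were 47.4 and 69.2 TPM, 90.1 and 86.3 TPM and 105 and 112 TPM. Its changes were 0.46 ± 0.14 (adjusted p = 0.0232) and 0.69 ± 0.14 (adjusted p = 0.00273) in KH and 0.61 ± 0.14 (adjusted p = 0.00471) and 0.91 ± 0.14 (adjusted p = 0.000376) in DNMT3ABKO cells, and no treated library overlapped an untreated one of its line. For Bub1 the KH call at 72 h was lost without replicate 1 of KH at 0 h or either library of KH at 72 h.

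Bub1b encodes BubR1, part of the complex that inhibits the anaphase-promoting complex. Here Bub1b stood at 95.4 and 103 TPM in KH cells at 0 h, at 116 and 117 TPM at 72 h and at 118 and 114 TPM at 144 h. In DNMT3ABKO cells Bub1b was at 88.7 and 96.5 TPM, 106 and 106 TPM and 107 and 111 TPM at these times. The rises were smaller, 0.23 ± 0.065 (adjusted p = 0.0153) and 0.22 ± 0.065 (adjusted p = 0.0154) in KH and 0.19 ± 0.065 (adjusted p = 0.0286) and 0.24 ± 0.065 (adjusted p = 0.0104) in DNMT3ABKO cells. For Bub1b the KH call at 72 h was lost without replicate 1 of KH at 0 h or either library of KH at 72 h, the KH call at 144 h was lost without replicate 1 of KH at 0 h or either library of KH at 144 h, the DNMT3ABKO call at 72 h was lost without replicate 1 of DNMT3ABKO at 0 h or either library of DNMT3ABKO at 72 h and the DNMT3ABKO call at 144 h was lost without replicate 2 of DNMT3ABKO at 144 h. Mad2l1, whose product Mad2 sequesters Cdc20, was at 91.02 and 110.2 TPM at 0 h, 93.2 and 96.1 TPM at 72 h and 91.7 and 94.7 TPM at 144 h in the KH libraries. The DNMT3ABKO libraries held 75.1 and 96.1 TPM, then 84.4 and 81.6 TPM and 88.4 and 94.4 TPM of Mad2l1. In both lines the untreated libraries lay on either side of all treated ones, and the fitted changes ran from -0.10 to 0.10 with none called.

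Centromere and kinetochore genes rose in most responses. Cenpe encodes a kinesin that carries chromosomes to the spindle equator. In these libraries Cenpe had 33.9 and 34.05 TPM in untreated KH cells, 41.8 and 44.5 TPM at 72 h and 56.5 and 50.5 TPM at 144 h. For Cenpe in DNMT3ABKO cells the values were 31.6 and 35.8 TPM, 53.3 and 49.9 TPM and 60.5 and 64.9 TPM. Each later group lay above the earlier one in both lines, with changes from 0 h of 0.34 ± 0.085 (adjusted p = 0.00892) and 0.64 ± 0.085 (adjusted p = 0.000171) in KH and 0.60 ± 0.085 (adjusted p = 0.000226) and 0.88 ± 0.085 (adjusted p = 1.33e-05) in DNMT3ABKO cells, and Cenpe also rose between 72 and 144 h, by 0.30 ± 0.085 (adjusted p = 0.0288) and 0.28 ± 0.085 (adjusted p = 0.036). That later rise of Cenpe was lost in both lines without a filter on low values, with the replicate block or without either KH library of 72 h, in KH cells also without replicate 1 of KH at 144 h, and in DNMT3ABKO cells also without any DNMT3ABKO library of 72 or 144 h. For Cenpe the KH call at 72 h was lost without replicate 2 of KH at 72 h. Cenpf, a large kinetochore and nuclear matrix protein, stood at 36.02 and 34.6 TPM in KH cells at 0 h, at 51.4 and 52.4 TPM at 72 h and at 68.3 and 55.2 TPM at 144 h. In DNMT3ABKO cells Cenpf was at 32.4 and 35.8 TPM, 56.8 and 53.4 TPM and 56.3 and 59.5 TPM at these times. Its highest library was replicate 1 of KH at 144 h, and treated and untreated libraries did not overlap. The changes were 0.54 ± 0.10 (adjusted p = 0.00142) and 0.78 ± 0.10 (adjusted p = 0.000114) in KH and 0.68 ± 0.10 (adjusted p = 0.000257) and 0.75 ± 0.10 (adjusted p = 0.00011) in DNMT3ABKO cells.

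Ndc80 and Nuf2 pair up at the microtubule-binding end of the rod that links kinetochore and spindle. Ndc80 was at 33.5 and 39.4 TPM at 0 h, 53.8 and 52.4 TPM at 72 h and 51.2 and 50.8 TPM at 144 h in the KH line. Ndc80 in the DNMT3ABKO line was at 34.5 and 39.3 TPM, then at 49.5 and 46.8 TPM and 47.1 and 53.7 TPM. All treated libraries lay above all untreated ones, with changes of 0.53 ± 0.10 (adjusted p = 0.00147) and 0.48 ± 0.10 (adjusted p = 0.0023) in KH and 0.38 ± 0.10 (adjusted p = 0.00783) and 0.44 ± 0.10 (adjusted p = 0.00312) in DNMT3ABKO cells, and the 144 h minus 72 h values were -0.06 and 0.06, not called. For Ndc80 the DNMT3ABKO call at 72 h was lost without replicate 1 of DNMT3ABKO at 72 h. Nuf2 had 30.8 and 35.3 TPM in untreated KH cells, 34.2 and 36.2 TPM at 72 h and 38.9 and 39.9 TPM at 144 h. For Nuf2 in DNMT3ABKO cells the values were 27.1 and 34.2 TPM, 38.1 and 36.9 TPM and 46.2 and 49.2 TPM. It passed the test in DNMT3ABKO cells, 0.29 ± 0.11 (adjusted p = 0.039) at 72 h and 0.63 ± 0.11 (adjusted p = 0.000588) at 144 h, against 0.25 ± 0.11 (adjusted p = 0.0756) in KH cells at 144 h. The difference in response at 144 h, 0.38 ± 0.15 (adjusted p = 0.159), did not pass the test, whereas it passed under median-ratio scaling. The call at 72 h was lost without any library of 72 or 144 h and without replicate 1 of DNMT3ABKO at 0 h. Cenpa, the histone variant that marks centromeres, stood at 129 and 131 TPM in KH cells at 0 h, at 139 and 135 TPM at 72 h and at 167 and 168 TPM at 144 h. In DNMT3ABKO cells Cenpa was at 134 and 137 TPM, 137 and 129.8 TPM and 169 and 179 TPM at these times. It was not called at 72 h (0.07 and -0.02) and rose by 144 h, 0.36 ± 0.058 (adjusted p = 0.000536) in KH and 0.36 ± 0.058 (adjusted p = 0.000483) in DNMT3ABKO cells, with the 4 libraries of 144 h above all others.

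Ube2c and Cdc20 work with the anaphase-promoting complex, and both were among the highest of the 36 in level. Ube2c, the ubiquitin-conjugating enzyme that starts the chains, was at 211 and 229.5 TPM at 0 h, 214 and 217 TPM at 72 h and 225 and 216 TPM at 144 h in the KH libraries. The DNMT3ABKO libraries held 194 and 241 TPM, then 270.5 and 275 TPM and 298 and 295 TPM of Ube2c. In KH cells all groups overlapped and the changes were -0.03 and 0.00, while DNMT3ABKO cells rose by 0.33 ± 0.091 (adjusted p = 0.0109) and 0.46 ± 0.091 (adjusted p = 0.00179). The test of the difference in response gave 0.36 ± 0.13 (adjusted p = 0.16) at 72 h and 0.45 ± 0.13 (adjusted p = 0.0612) at 144 h, neither of which passed, whereas both passed under median-ratio scaling. For Ube2c the DNMT3ABKO call at 72 h was lost without replicate 2 of DNMT3ABKO at 72 h. Cdc20, the activator that the checkpoint holds back, had 236 and 254 TPM in untreated KH cells, 249 and 233 TPM at 72 h and 286 and 289 TPM at 144 h. For Cdc20 in DNMT3ABKO cells the values were 217 and 230.3 TPM, 258 and 273 TPM and 267 and 261 TPM. It rose at 144 h by 0.23 ± 0.065 (adjusted p = 0.0143) in KH and 0.24 ± 0.065 (adjusted p = 0.01) in DNMT3ABKO cells, and at 72 h by 0.25 ± 0.065 (adjusted p = 0.00922) in DNMT3ABKO cells, against -0.02 ± 0.065 (adjusted p = 0.792) in KH cells, where it was not called. The difference in the response at 72 h, 0.27 ± 0.092 (adjusted p = 0.144), did not pass the test. For Cdc20 the KH call at 144 h was lost without replicate 1 of KH at 0 h or either library of KH at 144 h, the DNMT3ABKO call at 72 h was lost without replicate 2 of DNMT3ABKO at 72 h and the DNMT3ABKO call at 144 h was lost without replicate 1 of DNMT3ABKO at 144 h.

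Among the kinesin motors Kif11, Kif2c and Kif4 rose at both times in both lines. Kif11, which slides spindle poles apart, stood at 87.6 and 94.2 TPM in KH cells at 0 h, at 114 and 115 TPM at 72 h and at 123 and 119.6 TPM at 144 h. In DNMT3ABKO cells Kif11 was at 80.2 and 100.1 TPM, 118 and 114 TPM and 124 and 132 TPM at these times. Its changes were 0.33 ± 0.094 (adjusted p = 0.0156) and 0.41 ± 0.094 (adjusted p = 0.00435) in KH and 0.37 ± 0.094 (adjusted p = 0.00728) and 0.51 ± 0.094 (adjusted p = 0.00106) in DNMT3ABKO cells. For Kif11 the KH call at 72 h was lost without replicate 1 of KH at 0 h or either library of KH at 72 h. Kif2c, which depolymerises microtubules at centromeres, was at 58.8 and 63.2 TPM at 0 h, 79.2 and 78.1 TPM at 72 h and 80.2 and 83.99 TPM at 144 h in the KH line. Kif2c in the DNMT3ABKO line was at 61.1 and 64.96 TPM, then at 78.6 and 76.8 TPM and 89.4 and 92.5 TPM. It changed by 0.36 ± 0.064 (adjusted p = 0.00127) and 0.42 ± 0.064 (adjusted p = 0.000387) in KH and by 0.30 ± 0.064 (adjusted p = 0.00296) and 0.52 ± 0.064 (adjusted p = 6.88e-05) in DNMT3ABKO cells, and for both genes no treated library overlapped an untreated one of its line. Kif4, a motor of chromosome arms and the midzone, had 18.4 and 19.9 TPM in untreated KH cells, 22.8 and 23.5 TPM at 72 h and 27.2 and 26.2 TPM at 144 h. For Kif4 in DNMT3ABKO cells the values were 19.8 and 20.7 TPM, 23.7 and 24.4 TPM and 25.8 and 28.1 TPM. These were low levels, with every treated library above every untreated one. The changes were 0.26 ± 0.074 (adjusted p = 0.0145) and 0.46 ± 0.074 (adjusted p = 0.000549) in KH and 0.24 ± 0.074 (adjusted p = 0.0208) and 0.39 ± 0.074 (adjusted p = 0.00121) in DNMT3ABKO cells. For Kif4 the KH call at 72 h was lost without replicate 1 of KH at 0 h or either library of KH at 72 h and the DNMT3ABKO call at 72 h was lost without replicate 1 of DNMT3ABKO at 0 h or either library of DNMT3ABKO at 72 h. Both calls of Kif4 at 72 h were also lost under median-ratio scaling.

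Kif20a, a motor of late anaphase and cytokinesis, was called at 144 h and not at 72 h. It stood at 102 and 109 TPM in KH cells at 0 h, at 113 and 114 TPM at 72 h and at 126 and 125 TPM at 144 h. In DNMT3ABKO cells Kif20a was at 98.8 and 116 TPM, 108 and 106 TPM and 124 and 133 TPM at these times. The changes at 144 h were 0.25 ± 0.080 (adjusted p = 0.0238) in KH and 0.26 ± 0.080 (adjusted p = 0.0162) in DNMT3ABKO cells. For Kif20a the KH call at 144 h was lost without replicate 1 of KH at 0 h or either library of KH at 144 h and the DNMT3ABKO call at 144 h was lost without replicate 1 of DNMT3ABKO at 0 h or replicate 2 of DNMT3ABKO at 144 h. Kif23, the motor of the centralspindlin complex at the midzone, was the exception. It was at 69.3 and 74.1 TPM at 0 h, 58.7 and 59.5 TPM at 72 h and 61.6 and 61.8 TPM at 144 h in the KH libraries. The DNMT3ABKO libraries held 57.5 and 70.4 TPM, then 55.4 and 55.6 TPM and 57.9 and 63.7 TPM of Kif23. In KH cells the treated libraries lay below the untreated ones, and the fall at 72 h passed the test, -0.28 ± 0.092 (adjusted p = 0.0322). For Kif23 the KH call at 72 h was lost without either library of KH at 0 h or either library of KH at 72 h. The other changes of Kif23 were -0.21 in KH at 144 h and -0.19 and -0.07 in DNMT3ABKO cells, none of which was called.

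Of the genes of spindle assembly and the midzone, Nusap1 and Prc1 rose by 144 h in both lines. Nusap1, which bundles spindle microtubules, had 45.7 and 53.4 TPM in untreated KH cells, 53.96 and 60.2 TPM at 72 h and 70.2 and 71.2 TPM at 144 h. For Nusap1 in DNMT3ABKO cells the values were 48.01 and 62.00 TPM, 66.2 and 60.6 TPM and 80.2 and 89.8 TPM. Its libraries of 144 h lay above all others of the same line, and the change was 0.51 ± 0.12 (adjusted p = 0.00652) in KH and 0.63 ± 0.12 (adjusted p = 0.0016) in DNMT3ABKO cells, against 0.20 and 0.21 at 72 h, not called. Prc1, which crosslinks antiparallel microtubules at the midzone, stood at 93.5 and 99.5 TPM in KH cells at 0 h, at 101 and 100.3 TPM at 72 h and at 116 and 122 TPM at 144 h. In DNMT3ABKO cells Prc1 was at 83.4 and 102 TPM, 96.9 and 97.6 TPM and 119.8 and 128 TPM at these times. It changed by 0.30 ± 0.088 (adjusted p = 0.0159) in KH and 0.43 ± 0.088 (adjusted p = 0.00212) in DNMT3ABKO cells at 144 h. For Nusap1 the KH call at 144 h was lost without replicate 1 of KH at 0 h. For Prc1 the KH call at 144 h was lost without replicate 1 of KH at 0 h or replicate 2 of KH at 144 h. Tpx2, which activates aurora A on the spindle, stayed between 92.4 and 114 TPM in all 12 libraries and was not called in any contrast.

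Of the cytokinesis genes, Ect2 rose in all 4 responses from 0 h and Anln was not called. Ect2 (mm10 chromosome 3, 27097222 to 27153878) encodes the exchange factor that activates RhoA for the contractile ring. It was at 98.6 and 108 TPM at 0 h, 139 and 142 TPM at 72 h and 187 and 182 TPM at 144 h in the KH line. Ect2 in the DNMT3ABKO line was at 78.7 and 103 TPM, then at 167 and 158 TPM and 188 and 199.9 TPM. The 4 libraries of 144 h were the highest of the 12, and no treated library overlapped an untreated one. The changes were 0.44 ± 0.11 (adjusted p = 0.00762) and 0.83 ± 0.11 (adjusted p = 0.00014) in KH and 0.85 ± 0.11 (adjusted p = 0.00011) and 1.10 ± 0.11 (adjusted p = 1.43e-05) in DNMT3ABKO cells, a fold of 2.14 on the log2(TPM + 1) scale for the last, the largest of the 36. For Ect2 the KH call at 72 h was lost without replicate 1 of KH at 0 h. Anln, the anillin scaffold of the same ring, had 67.98 and 83.1 TPM in untreated KH cells, 77.04 and 75.7 TPM at 72 h and 78.7 and 81.4 TPM at 144 h. For Anln in DNMT3ABKO cells the values were 61.5 and 77.9 TPM, 73.9 and 70.8 TPM and 78.6 and 83.6 TPM. Its fitted changes ran from 0.02 to 0.22 and none was called.

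Of the genes of chromosome structure, Top2a encodes the topoisomerase that untangles sister chromatids and Mki67 the protein Ki-67, which coats mitotic chromosomes and is widely used as a marker of cycling cells. Top2a (mm10 chromosome 11, 98992943 to 99024189) stood at 279 and 302 TPM in KH cells at 0 h, at 395 and 406 TPM at 72 h and at 426 and 410.0 TPM at 144 h. In DNMT3ABKO cells Top2a was at 252 and 308 TPM, 485 and 464 TPM and 492 and 522 TPM at these times. Treated libraries lay at 395 TPM or more and untreated ones at 308 TPM or less, with changes of 0.46 ± 0.090 (adjusted p = 0.00227) and 0.52 ± 0.090 (adjusted p = 0.000876) in KH and 0.77 ± 0.090 (adjusted p = 6.88e-05) and 0.86 ± 0.090 (adjusted p = 2.3e-05) in DNMT3ABKO cells. Mki67 was at 55.4 and 59.7 TPM at 0 h, 74.04 and 77.3 TPM at 72 h and 115 and 95.5 TPM at 144 h in the KH libraries. The DNMT3ABKO libraries held 47.04 and 60.6 TPM, then 79.6 and 75.02 TPM and 86.1 and 87.6 TPM of Mki67. It changed by 0.39 ± 0.12 (adjusted p = 0.0208) and 0.85 ± 0.12 (adjusted p = 0.000219) in KH and by 0.52 ± 0.12 (adjusted p = 0.00388) and 0.69 ± 0.12 (adjusted p = 0.000647) in DNMT3ABKO cells. The highest Mki67 library, replicate 1 of KH at 144 h, was the same library that stood highest for Cenpf. For Mki67 the KH call at 72 h was lost without replicate 1 of KH at 0 h or either library of KH at 72 h.

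Foxm1, a transcription factor that works with B-Myb and MuvB on promoters of G2 and mitosis genes, rose in both lines. It had 29.3 and 32.2 TPM in untreated KH cells, 44.7 and 41.96 TPM at 72 h and 49.95 and 50.8 TPM at 144 h. For Foxm1 in DNMT3ABKO cells the values were 24.5 and 28.6 TPM, 38.2 and 37.6 TPM and 36.2 and 37.8 TPM. Treated libraries did not overlap untreated ones of their line, and the changes were 0.48 ± 0.084 (adjusted p = 0.00114) and 0.70 ± 0.084 (adjusted p = 8.61e-05) in KH and 0.50 ± 0.084 (adjusted p = 0.000656) and 0.47 ± 0.084 (adjusted p = 0.000875) in DNMT3ABKO cells. In KH cells the libraries of 144 h lay above those of 72 h, whereas in DNMT3ABKO cells the groups of 72 and 144 h overlapped.

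Between 72 and 144 h, 8 of the 36 rose and none fell in KH cells, against 7.24% of all tested genes called higher and 15.6% called lower. In DNMT3ABKO cells 11 rose and none fell, against 8.81% and 18.5%. Aurka, Cdca8, Cenpa and Cenpe rose in both, Cdc20, Ect2, Mki67 and Plk1 passed the test in KH but not in DNMT3ABKO cells, and Cdc25c, Incenp, Kif20a, Kif2c, Nuf2, Nusap1 and Prc1 in DNMT3ABKO but not in KH cells. Whether the lines differed in this step was not tested. The median change of the 36 was 0.15 in KH and 0.16 in DNMT3ABKO cells, against -0.04 and -0.06 for all tested genes. These counts depended on single libraries, and only the call of Aurka in both lines and that of Cenpa in DNMT3ABKO cells stayed without each of the 12. In KH cells the rises were 2 without replicate 1 and 1 without replicate 2 of 72 h, 2 without replicate 1 and 5 without replicate 2 of 144 h, and 15 with 1 fall without either replicate of DNMT3ABKO at 0 h, which changes the shared spread alone. In DNMT3ABKO cells 3 rises were left without either library of 72 h, 5 without replicate 1 and 2 without replicate 2 of 144 h, and 16 without either DNMT3ABKO library of 0 h.

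The lines were then compared at each time. At 0 h none of the 36 differed in the limma test, against 9.06% of all tested genes, and 4 had an unadjusted p under 0.05. Fitted differences (DNMT3ABKO minus KH) ran from -0.36 for Ccna2 to 0.15 for Aurka. Without replicate 2 of DNMT3ABKO at 0 h, which leaves the low replicate 1 to stand for that group, 13 were called lower. At 72 h Cdca8 (0.22 ± 0.062, adjusted p = 0.0364) and Ube2c (0.34 ± 0.091, adjusted p = 0.0284) were higher in DNMT3ABKO cells, 2 of the 36 against 19.3% of all genes called in either direction. The call of Cdca8 was lost with the replicate block (adjusted p = 0.0668, limma). No member was called at 72 h when any of the 4 libraries of that time was left out, 1 was when any library of 144 h was left out, and 7 were higher and 3 lower without either DNMT3ABKO library of 0 h.

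At 144 h 6 of the 36 were higher and 1 was lower in DNMT3ABKO cells, against 26.5% of all genes called in either direction. The higher genes were Ube2c (0.43 ± 0.091, adjusted p = 0.00737), Birc5 (0.39 ± 0.072, adjusted p = 0.00334), Aurka (0.28 ± 0.061, adjusted p = 0.00772), Top2a (0.28 ± 0.090, adjusted p = 0.0461), Ccnf (0.22 ± 0.062, adjusted p = 0.0253) and Cdca8 (0.19 ± 0.062, adjusted p = 0.0459). Foxm1 was lower (-0.44 ± 0.084, adjusted p = 0.00407). With the replicate number as a block 4 of the 7 stayed called, and Ccnf, Cdca8 and Top2a did not (adjusted p = 0.0535, 0.0767 and 0.0609, limma). For each of the 7 both libraries of a line lay beyond both of the other. Foxm1 stood at 49.95 and 50.8 TPM in KH and 36.2 and 37.8 TPM in DNMT3ABKO cells at that time, and it was also lower in the means of DNMT3ABKO cells at 0 and 72 h, where the difference was not called (-0.21 and -0.19). Leaving out either KH library of 144 h, or replicate 2 of DNMT3ABKO at 144 h, left 2 higher and 1 lower, leaving out replicate 1 of DNMT3ABKO at 144 h left 3 higher and 1 lower, and leaving out either DNMT3ABKO library of 0 h gave 10 higher and 2 lower.

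**Figure D4:**
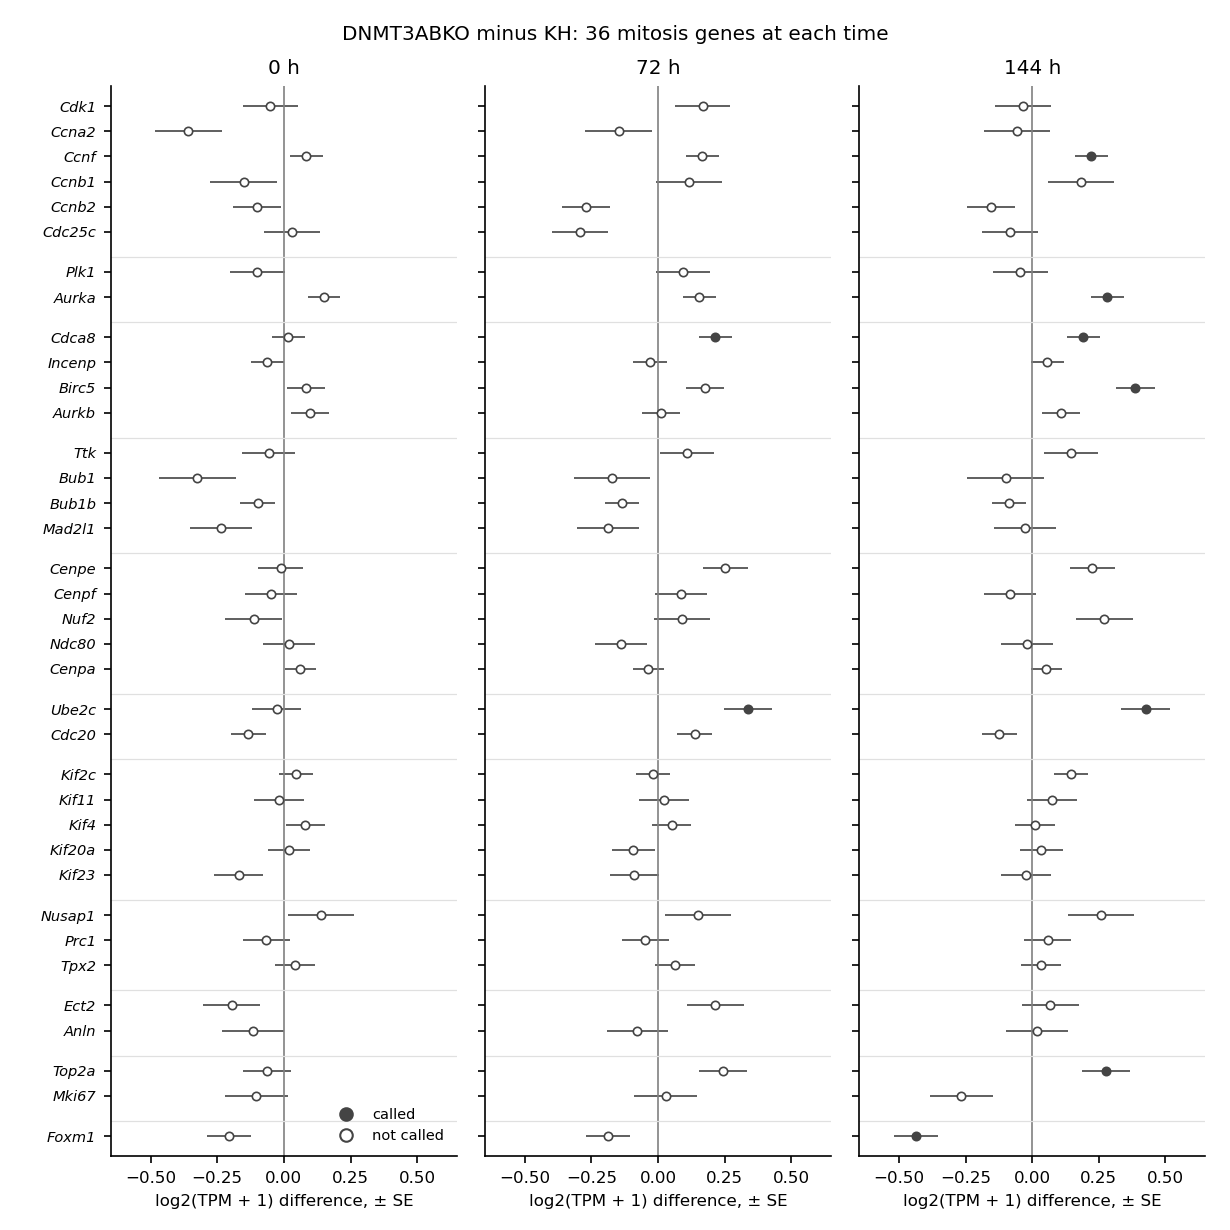
Difference between lines, DNMT3ABKO minus KH, for each of the 36 mitosis genes at 0, 72 and 144 h, as the difference of log2(TPM + 1) with its standard error from limma. Filled points were called at an adjusted p under 0.05: none at 0 h, Cdca8 and Ube2c at 72 h, and Ube2c, Birc5, Aurka, Top2a, Ccnf and Cdca8 (higher) and Foxm1 (lower) at 144 h.

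The response itself was compared between the lines with the interaction terms of the model. None of the 36 passed at 72 h or at 144 h, against 5.23% and 8.59% of all tested genes called in either direction, and 5 and 4 had an unadjusted p under 0.05. Under median-ratio scaling 2 passed at 72 h, Ect2 (0.38 ± 0.098, adjusted p = 0.0445) and Ube2c (0.34 ± 0.083, adjusted p = 0.0384), and 4 at 144 h, Birc5 (0.30 ± 0.081, adjusted p = 0.0379), Nuf2 (0.38 ± 0.10, adjusted p = 0.0358), Top2a (0.34 ± 0.078, adjusted p = 0.0202) and Ube2c (0.45 ± 0.083, adjusted p = 0.00721), all more positive in DNMT3ABKO cells. Of all tested genes 8.01% and 13.2% then passed in either direction. In the unscaled values the fitted change was larger in DNMT3ABKO cells for 27 of the 36 at 72 h and for 27 at 144 h, against 53.5% and 51.3% of all tested genes. The medians of the differences were 0.06 and 0.12. The 95% interval of a difference reached 0.18 to 0.45 on either side of its value (median 0.29), the precision that 2 libraries a group gave. Those medians turned to -0.05 and -0.03 without replicate 1 of DNMT3ABKO at 0 h, and were 0.20 and 0.18 without replicate 2, when 8 and 10 genes were called higher.

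Genes around the 36 were counted in the same fits. Of 80 other mitosis genes, all tested, 36 rose and 5 fell at 72 h and 38 rose and 6 fell at 144 h in KH cells, and 31 rose and 7 fell, then 46 rose and 5 fell in DNMT3ABKO cells. The rises were 45.0% and 47.5% of the list in KH and 38.8% and 57.5% in DNMT3ABKO cells, beside 28.3%, 27.4%, 34.3% and 31.4% of all tested genes called higher in these contrasts. The falls were 6.25% and 7.5% in KH and 8.75% and 6.25% in DNMT3ABKO cells. Of all tested genes 19.5%, 23.9%, 21.6% and 26.2% were called lower. Their medians at 144 h were 0.25 and 0.31. The rises included Cit, a kinase of cytokinesis (0.88 in KH at 144 h), Aspm, a spindle pole protein (0.83 in KH at 144 h and 0.92 in DNMT3ABKO at 72 h), Zwilch of the checkpoint (0.84 and 0.93 at 72 h in KH and DNMT3ABKO) and the condensin subunits Ncapd3 and Smc4 (1.00 and 1.00 in DNMT3ABKO at 144 h). The falls included Cdc25a, a phosphatase that activates Cdk2 and Cdk1 (-0.38 and -0.67 at 144 h), and the kinetochore gene Pmf1 (-0.35 and -0.43).

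Of 17 genes of the anaphase-promoting complex and its regulators, 1 rose and 2 fell at 72 h and 2 rose and 5 fell at 144 h in KH cells, and 3 rose and 4 fell, then 3 rose and 7 fell in DNMT3ABKO cells, with medians of -0.14 and -0.19 at 144 h. The rises at 144 h were 11.8% and 17.6% of the list, beside 27.4% and 31.4% of all tested genes, and the falls 29.4% and 41.2%, beside 23.9% and 26.2%. At 72 h the rises were 5.88% and 17.6%, beside 28.3% and 34.3%, and the falls 11.8% and 23.5%, beside 19.5% and 21.6%. Fzr1, the activator Cdh1 that works from late mitosis into G1, rose in all 4 responses (0.48 in KH and 0.65 in DNMT3ABKO at 144 h), as did the conjugating enzyme Ube2s at 144 h (0.28 and 0.38). The subunit Anapc10 fell at 144 h in both lines (-0.92 and -0.74).

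Among 21 genes of mitotic transcription control (B-Myb, MuvB, E2F, pocket proteins and NF-Y), 9 rose and 3 fell at 72 h and 8 rose and 3 fell at 144 h in KH cells, and 8 rose and 2 fell, then 8 rose and 4 fell in DNMT3ABKO cells. The rises at 144 h were 38.1% of the list in each line, beside 27.4% and 31.4% of all tested genes. At 72 h they were 42.9% and 38.1%, beside 28.3% and 34.3%. The falls were 14.3% and 9.52% at 72 h, beside 19.5% and 21.6%, and 14.3% and 19.0% at 144 h, beside 23.9% and 26.2%. Lin54, which contacts the TTTGAA element, rose at 144 h (0.67 in KH and 0.82 in DNMT3ABKO), and Nfya, a subunit of the CCAAT-binding factor, at 72 h (0.98 and 0.99), whereas Nfyb fell at 144 h (-0.25 and -0.34). The E2F partner Tfdp1 fell in all 4 responses (-0.63 and -0.90 at 144 h) and its relative Tfdp2 rose at 144 h in both (1.30 and 0.77).

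Of the 46 DNA replication genes 12 rose and 6 fell at 72 h and 10 rose and 4 fell at 144 h in KH cells, with a median of 0.00 at 144 h. In DNMT3ABKO cells 6 rose and 15 fell at 72 h and 5 rose and 17 fell at 144 h, with a median of -0.06. The rises at 72 h were 26.1% of the list in KH cells, near the 28.3% of all tested genes, and 13.0% in DNMT3ABKO cells beside 34.3%, and the falls in DNMT3ABKO cells were 32.6% and 37.0% beside 21.6% and 26.2%. At 144 h the rises were 21.7% and 10.9%, beside 27.4% and 31.4%. The falls in KH cells were 13.0% and 8.7% at 72 and 144 h, beside 19.5% and 23.9%. Rrm2, which supplies deoxynucleotides, fell in both (-0.76 in KH and -1.56 in DNMT3ABKO at 144 h), and so did Tk1 (-0.54 and -0.90) and Cdc6 (-0.31 and -0.68), while the polymerase genes Pola1 (0.53 and 0.59) and Pole (0.58 and 0.47) rose. The response differed between lines for 4 of the 46 at 72 h and 8 at 144 h, 8.70% and 17.4% of the list beside 5.23% and 8.59% of all tested genes, and all were more negative in DNMT3ABKO cells.

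Some members share sequence with a neighbour on the opposite strand, and whether the quantification used strand is not given in the sources used here. In a later GENCODE annotation exons of Ccna2 overlapped Exosc9 (at most 52.1 TPM), those of Kif20a Cdc23 (60.9 TPM), Kif4 Pdzd11 (36.7 TPM), Nusap1 Oip5 (30.9 TPM), Cdc20 Elovl1 (19.5 TPM), Prc1 Rccd1 (14.6 TPM) and Cdca8 9930104L06Rik (14.3 TPM). Values of these genes, in particular Kif4, are therefore uncertain where reads could be assigned to either gene.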

How the data were processed

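RNA sequencing was measured in 12 libraries. Per the methods, viable single cells were sorted, RNA was depleted of ribosomal RNA, and reads were trimmed, aligned to mm10 and quantified against GENCODE VM19; the submitters' notes name cutadapt 2.4, STAR 2.7.3a and StringTie 2.0. The authors deposited TPM per gene, a unit that does not keep sequencing depth. The study's own summary of read depth was not used here, and no counting intervals are given. The study's DESeq2 test needs counts and was not used. The tables hold no spike-in rows. Genes averaging 1 TPM or more were tested with limma 3.58.1 (R 4.3.3, trend) on log2(TPM + 1), in 1 fit of 6 groups with 11 contrasts and Benjamini-Hochberg adjustment. In data simulated for KH at 72 h against 0 h, 175 of 200 genes changed by 1 on the log2 scale were recovered among 15727, with 188 genes called. Nearly all member changes were smaller than 1, and recovery of smaller changes was not simulated. All 36 members may be named, and from each other list the 3 highest and 3 lowest called genes per contrast with groups apart. For differences in response no separation of the groups was required. Members and lists were chosen with earlier results of these data known. The study states that the time points of a biological replicate were handled in parallel, so the replicate number may mark a shared batch. Deviations of same-numbered libraries correlated from -0.10 to 0.10 between times within a line and at 0.34 between the lines at 0 h, and the fit with the number as a block within each line is given where it changes a call. Alternatives were a pseudocount of 0.1, no filter, median-ratio scaling, a replicate block, only the groups compared, a minimum change and leaving out each library. Promoter windows were taken from RefSeq (GRCm38.p6), and sums and figures were made with Python 3.11.15.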

Additional observations from a re-analysis of the deposited data

Results flagged for a closer look

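None of the 36 mitosis genes met a criterion for a closer look, but genes of the neighbouring lists had responses to mTORi that differed between the lines by the interaction test of limma (DNMT3ABKO minus KH, log2 scale ± SE, 2 libraries a group). Among the other mitosis genes, Spc24, a kinetochore gene, differed by -0.62 ± 0.087 at 72 h (adjusted p = 0.00342), and Pttg1, which encodes securin, by 0.93 ± 0.14 at 144 h (adjusted p = 0.00235). Cdc26, a subunit of the anaphase-promoting complex, differed by -0.87 ± 0.21 at 144 h (adjusted p = 0.0318). Of the DNA replication genes with apart groups, Rrm2 differed by -0.62 ± 0.11 at 72 h (adjusted p = 0.0129) and by -0.80 ± 0.11 at 144 h (adjusted p = 0.00178). Lig1, the replicative ligase, differed by -0.46 ± 0.093 (adjusted p = 0.0191) and Mcm3, a helicase subunit, by -0.35 ± 0.076 (adjusted p = 0.0254) at 72 h. Gins2 differed by -0.76 ± 0.16 (adjusted p = 0.0154) and Pold1, the catalytic subunit of polymerase delta, by -0.49 ± 0.094 (adjusted p = 0.0103) at 144 h. All of these rest on the DNMT3ABKO libraries at 0 h, whose replicate 1 was lower for all 36 mitosis genes and also in its size factor. What lies behind these differences was not tested.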

How the results depend on the processing

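No called member change turned its direction under any alternative. Of 118 called member changes over 11 contrasts, 0 were lost with a pseudocount of 0.1, 17 without a filter (37364 genes tested), 9 under median-ratio scaling, 12 with a replicate block, 19 with only the groups compared, and 1 to 27 when 1 library was left out. The tables keep no read depth. With 2 libraries a group no difference in response between lines passed in the unscaled values, where the fitted differences reached 0.45. Unless stated, the cause was not tested.

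Median-ratio scaling gave medians of 0.045 and 0.19 in KH at 72 and 144 h, 0.11 in DNMT3ABKO at 72 h, 0.20 and 0.23 for 144 against 72 h in KH and DNMT3ABKO, and 0.068 and 0.096 between lines at 72 and 144 h. Its counts were 17 and 23 for 144 against 72 h in KH and DNMT3ABKO, 2, 10 and 13 between lines at 0, 72 and 144 h, and 2 and 4 for the response differences. It changed the share of rises among all called genes at 72 h from 59.1% to 46.4% in KH and from 61.3% to 48.5% in DNMT3ABKO, and for 144 against 72 h from 31.7% to 43.9% and from 32.3% to 47.6%. Without a filter the counts were 4 and 7 for 144 against 72 h and 1 between lines at 72 h. With only the groups compared they were 18 and 18 for 144 against 72 h, 12 and 20 in DNMT3ABKO at 72 and 144 h, and 15 and 11 between lines at 72 and 144 h. A minimum absolute change of 1 left 1 gene in DNMT3ABKO at 144 h, Ect2, and 0 in the other contrasts.

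Whether the replicate numbers pair the samples was not settled by the correlations. With the replicate number as a block the counts were 18 and 21 in KH and 20 and 26 in DNMT3ABKO at 72 and 144 h, 7 and 9 for 144 against 72 h, 0, 1 and 4 between lines at 0, 72 and 144 h, and 0 for both response differences. The block also lost the rise of Kif2c between 72 and 144 h in DNMT3ABKO cells (adjusted p = 0.0516), and the calls it lost are otherwise named with the results.

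Leaving out 1 library at a time, counts ran from 11 to 21 and from 15 to 27 in KH at 72 and 144 h, from 14 to 24 and from 22 to 32 in DNMT3ABKO, from 1 to 16 and from 2 to 16 for 144 against 72 h in KH and DNMT3ABKO, from 0 to 13, 0 to 10 and 3 to 12 between lines at 0, 72 and 144 h, and from 0 to 8 and 0 to 10 for the response differences. Medians ran from 0.080 to 0.23 and from 0.20 to 0.33 in KH, from 0.13 to 0.32 and from 0.30 to 0.48 in DNMT3ABKO, from 0.13 to 0.15 and from 0.12 to 0.20 for 144 against 72 h, from -0.18 to 0.075, from 0.018 to 0.058 and from 0.0086 to 0.079 between lines, and from -0.048 to 0.20 and from -0.026 to 0.18 for the response differences.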
